A study of Mus musculus with 8 samples.

Results

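The common gamma chain receptors are built from a shared subunit and a partner chain for each cytokine, and this section describes the 7 genes of the chains for IL-2, IL-4, IL-7, IL-9 and IL-15: Il2ra, Il2rb, Il2rg, Il4ra, Il7r, Il9r and Il15ra. They were taken by gene symbol from a table of 23361 genes, and all 7 were found. RNA had been sequenced from Foxp3-RFP+ iTreg, which are Treg made in vitro, here from naive CD4+ T cells (CD44low CD62Lhigh) of male wild-type B6 Foxp3-RFP mice at 7 to 8 weeks of age, whose red fluorescent protein marks cells that express Foxp3. Both groups came from cells given anti-CD3/CD28 beads, IL-2 (50 U/ml in the labels) and TGF-β (2 ng/ml) for 3 days, although another label field gives day 5. A sort for Nrp-1 among the Foxp3-RFP+ cells gave 4 libraries with Nrp-1 and 4 without it, each numbered as biological replicates 1 to 4. The study's methods also describe removal of CD25+ cells, CD25 being the product of Il2ra, before the naive cells were taken into culture. IL-2, the ligand of that chain, was added to the cultures of both groups. Nothing in the labels says that replicates came from separate mice, and p-values then measure the spread between these libraries only.

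IL-2 is bound with high affinity by a receptor of Il2ra, Il2rb and Il2rg, and Treg are known for a high level of the alpha chain and for their dependence on IL-2. Il2rb and Il2rg also form the signalling pair of the IL-15 receptor, to which Il15ra presents the cytokine, while Il4ra, Il7r and Il9r each pair with Il2rg. These receptors signal through JAK1 and JAK3 to STAT5, STAT6 or STAT3, and in conventional T cells Il7r is known to be high at rest and lower after activation, whereas Il2ra is induced by activation.

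The table holds FPKM, the fragments of a gene divided by its exon length and by the size of the library, so levels can be compared between genes per length. Steps between the lowest values gave approximate depths of 18300000 to 22900000 fragments in the Nrp-1+ libraries and 15200000 to 23300000 in the Nrp-1- libraries. The sorted gene Nrp1 was at 20.4 to 22.0 FPKM in Nrp-1+ iTreg and 4.70 to 5.31 FPKM in Nrp-1- iTreg, which follows the labels. Genes of T cells were high in every library, with Cd3e at 221.9 and 235.4 FPKM, Cd4 at 315.0 and 325.1 FPKM and Foxp3 at 115.8 and 108.8 FPKM on average in Nrp-1+ and Nrp-1- iTreg. Most markers of other cells were near 0: the 3 NK cell genes summed to at most 0.0927 and 0.142 FPKM, the 3 dendritic cell genes to at most 0.264 and 0.107 FPKM, and Ms4a1 of B cells was listed at 0 in all 8 libraries. The 4 B cell genes summed to 5.21 to 5.91 and 4.01 to 5.80 FPKM, nearly all of it Cd79b, and of the CD8 genes Cd8a averaged 0.0571 and 0.0474 FPKM but Cd8b1 7.86 and 10.0 FPKM (adjusted p = 0.0119 by limma). Itgam, an integrin gene listed here for myeloid cells, was the exception among its 4 listed markers, at 6.70 against 5.56 FPKM (adjusted p = 0.00136 by limma), while Lyz2 averaged 0.0569 and 0.132 FPKM, and Csf1r and Cd14 were listed at 0 in all Nrp-1+ libraries.

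Il2ra and Il9r were higher and Il7r and Il4ra lower in Nrp-1+ iTreg, while Il2rb, Il2rg and Il15ra did not pass the test. The test was limma on log2(FPKM + 1), with p-values adjusted over all genes tested and a threshold of 0.05. It ran on 10467 genes with a mean of at least 1 FPKM, and 6 of the 7 chains passed that filter. Il9r did not, and was taken from the same fit over all 16289 genes with any value above 0. Of the 6 chains, 3 were called, where 40.9% of all genes tested were called, 20.9% as higher and 20.0% as lower in Nrp-1+ iTreg. For Il9r the background was 14.1% of genes called higher in the larger fit. Among the 6 chains tested the groups did not overlap in 3, against 39.5% of the genes tested, and they did not overlap in Il9r, which lies outside that set. The median log2 fold change of the 6 chains was -0.09, and that of all genes tested -0.016. With 7 chains these counts are not set apart from the background, and the values below concern the single chains and their proportions.

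In both groups the order of the levels was Il2rb, Il2rg, Il2ra, Il7r, Il4ra, Il15ra and Il9r. No 2 neighbours in this order overlapped in any library of a group. Il2rb ranked 182, Il2rg 248, Il2ra 369, Il7r 667 and Il4ra 1108 among the 10467 genes tested by mean FPKM, and Il15ra ranked 9107. The sum of the 7 chains was 1418 ± 8.51 FPKM with Nrp-1 and 1441 ± 11.7 FPKM without it (SD, n = 4). Of this sum Il2ra held 18.7% against 15.8%, Il7r 8.66% against 10.9% and Il2rg 27.8% against 27.5%.

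**Figure D1:**
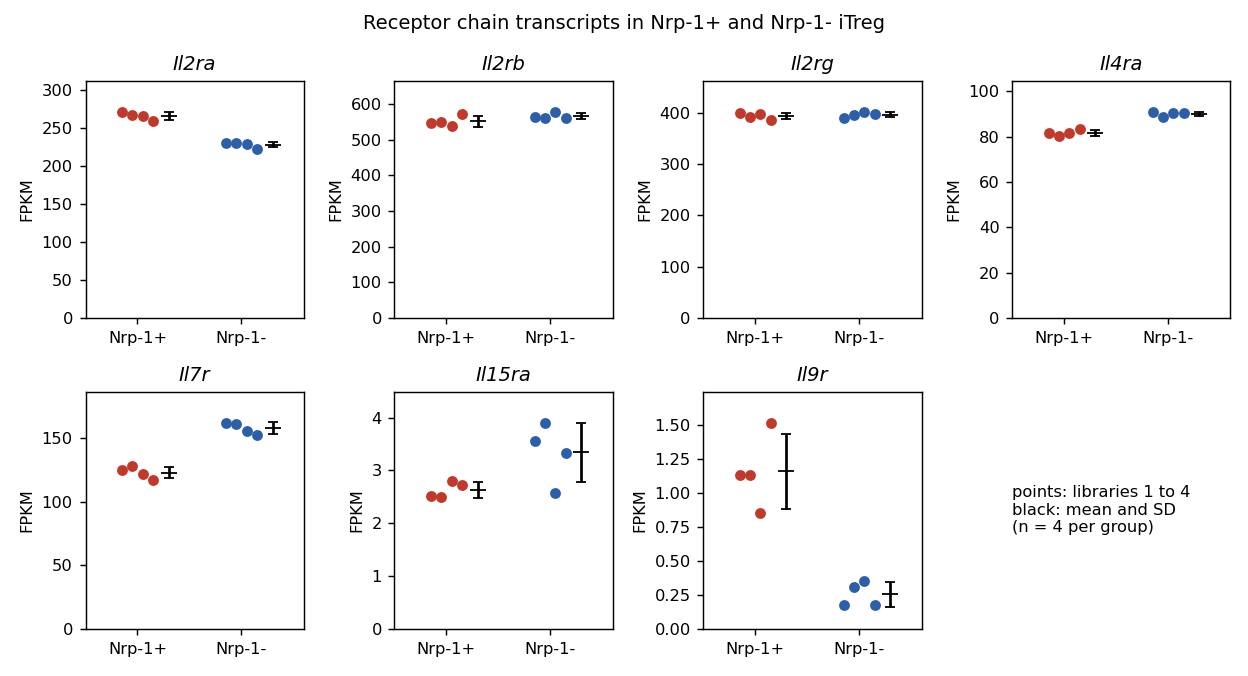
Level of each receptor chain in FPKM (vertical axes from 0) in the 4 Nrp-1+ iTreg (red) and 4 Nrp-1- iTreg (blue) libraries, with the mean and SD in black. Il2ra and Il9r are higher and Il7r and Il4ra lower in every Nrp-1+ library than in every Nrp-1- library, while the points of Il2rb, Il2rg and Il15ra overlap.

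The promoters of Il2ra and Il7r are shown because both genes were abundant and moved in opposite directions. The bases lie upstream of the start site of the RefSeq annotation of GRCm38.p6, a patch release of the GRCm38 assembly in the submitters' processing notes, and exclude any annotated exon. The Il2ra stretch is chr2:11642542-11642791 on the plus strand and the Il7r stretch chr15:9529942-9530040 on the minus strand. Capitals mark the matches to the motifs searched.

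Il2ra: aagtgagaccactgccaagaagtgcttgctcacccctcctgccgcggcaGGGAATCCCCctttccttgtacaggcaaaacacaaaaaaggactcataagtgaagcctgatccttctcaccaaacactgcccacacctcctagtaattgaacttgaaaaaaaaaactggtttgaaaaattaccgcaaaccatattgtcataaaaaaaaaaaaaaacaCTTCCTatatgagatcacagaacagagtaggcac

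Il7r: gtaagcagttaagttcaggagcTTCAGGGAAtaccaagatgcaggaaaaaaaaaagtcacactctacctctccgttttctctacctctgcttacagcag

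The search used TTCNNNGAA for STAT, for NF-kB the bases GGGA and CC with any 4 bases between them, CTTCCT for ETS, TGANTCA for AP-1, TGTGGT for RUNX, GTAAACA for FOXO and AGATAA for GATA factors, on both strands of windows from 250 bases before to 50 after a start site. Matches of 2 motifs did not overlap in the stretches shown. The Il2ra window held 1 NF-kB match, at -201 to -192, and 1 ETS match at -34 to -29. The Il7r window held 1 STAT match, TTCAGGGAA at -142 to -134, 1 ETS match at -48 to -43 and 1 RUNX match 4 to 9 bases after the start site, of which only the STAT match lies in the bases printed. Of all 32851 windows in the table, 8.3% held the STAT motif, 20.7% the NF-kB motif, 35.4% the ETS motif and 16.8% the RUNX motif. Windows were available for 6 of the 7 chains. Beside Il2ra and Il7r, Il4ra held only an ETS match, Il2rg an ETS and a RUNX match, the 2 windows of Il15ra an ETS match and an AP-1 match, and the Il9r window, which lies inside the annotated gene, 2 GATA matches and 1 RUNX match. These matches describe letters and were not tested for binding.

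Il2ra, the alpha chain CD25 that raises the affinity of the IL-2 receptor, lies on chromosome 2 (11642792 to 11693194, plus strand). It was at 270.8, 266.9, 265.4 and 258.9 FPKM in the Nrp-1+ libraries, replicates 1 to 4, and at 230.7, 229.8, 228.4 and 222.7 FPKM in the Nrp-1- libraries. Every Nrp-1+ library thus lay above every Nrp-1- library. The means were 265.5 ± 4.96 and 227.9 ± 3.58 FPKM (SD, n = 4), an increase of 16.5% in Nrp-1+ iTreg (exact two-sided permutation test, p = 0.0286, the smallest that 4 libraries against 4 allow). The log2 fold change was 0.22 with a standard error of 0.02 (adjusted p = 0.000108 by limma). By size of change Il2ra ranked 2609 among the 10467 genes. In these bulk libraries fewer cells of a type and less RNA per cell cannot be told apart.

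Il2rb, the beta chain shared by the IL-2 and IL-15 receptors, was the most abundant of the 7 (chromosome 15, 78479256 to 78511621). Its values were 546.0, 547.9, 537.6 and 572.0 FPKM in Nrp-1+ iTreg and 564.1, 560.2, 577.4 and 561.6 FPKM in Nrp-1- iTreg. The groups overlapped through the Nrp-1+ replicate 4. The change was -2.64% (adjusted p = 0.25 by limma), with a 95% interval from -6.46% to 1.31%. Il2rg, the common gamma chain itself, lies on chromosome X (101264385 to 101268255, minus strand) and was at 399.4, 391.8, 397.0 and 386.0 FPKM in Nrp-1+ iTreg. The 4 Nrp-1- libraries held 389.9, 394.8, 401.2 and 396.3 FPKM, within nearly the same range. The means of Il2rg, 393.6 ± 5.94 and 395.6 ± 4.64 FPKM (SD, n = 4), differed by -0.511% (adjusted p = 0.793 by limma), and the 95% interval of the change ran from -3.63% to 2.71%. The signs of the Il2rb and Il2rg changes turned with quantile normalization, to log2 fold changes of 0.0040 and 0.0098, and that of Il2rg also without the Nrp-1+ replicate 4 (0.0018).

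Il7r, the alpha chain of the IL-7 receptor, which carries a survival signal in resting T cells, showed the largest decrease among the chains called. It lies on chromosome 15 (9506159 to 9529941, minus strand). The Nrp-1+ libraries held 124.8, 127.8, 121.2 and 117.1 FPKM and the Nrp-1- libraries 161.9, 161.2, 155.2 and 152.6 FPKM. All 4 Nrp-1+ libraries were below all 4 Nrp-1- libraries. The means were 122.8 ± 4.6 and 157.7 ± 4.56 FPKM (SD, n = 4), a change of -22.2% (exact two-sided permutation test, p = 0.0286). The log2 fold change was -0.36 with a standard error of 0.03 (adjusted p = 6.84e-05 by limma), which ranked 1302 by size. Crlf2, the chain that joins Il7r in the TSLP receptor, was at 49.5 ± 2.20 and 47.8 ± 1.78 FPKM (adjusted p = 0.355 by limma).

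Il4ra, the chain that binds IL-4 with Il2rg and IL-13 with Il13ra1, had a smaller decrease (chromosome 7, 125552271 to 125579474, plus strand). It was at 81.5, 80.3, 81.5 and 83.5 FPKM in Nrp-1+ iTreg and 90.8, 88.4, 90.4 and 90.2 FPKM in Nrp-1- iTreg. The groups did not overlap. The change was -9.18%, with a log2 fold change of -0.14 and a standard error of 0.02 (adjusted p = 0.000798 by limma). Il13ra1 averaged 0.0226 and 0.0214 FPKM, so the second chain of the IL-13 type of receptor was barely detected in these libraries.

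Il15ra, the alpha chain that holds IL-15, begins 11977 bases beyond the end of Il2ra on the same strand (chromosome 2, 11705172 to 11733985). It was far less abundant, at 2.51, 2.49, 2.81 and 2.72 FPKM in Nrp-1+ iTreg and 3.57, 3.91, 2.57 and 3.33 FPKM in Nrp-1- iTreg. The Nrp-1- replicate 3 lay among the Nrp-1+ libraries, and the other 3 lay above all of them. The change was -21.2% and did not pass (adjusted p = 0.0691 by limma; exact two-sided permutation test, p = 0.0857). The outcome of this test changed with 1 library: without replicate 3 of Nrp-1- iTreg, the log2 fold change was -0.34 (adjusted p = 0.00548 by limma). It also passed with all 8 libraries in the fit without short RNA genes (adjusted p = 0.0380 by limma).

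Il9r, the IL-9 receptor chain, known in mast cells and in some helper and regulatory T cells, was the least abundant and had the largest ratio of the 7. It lies on chromosome 11 (32187544 to 32205283, minus strand). It was at 1.13, 1.13, 0.848 and 1.51 FPKM in Nrp-1+ iTreg and 0.178, 0.307, 0.355 and 0.176 FPKM in Nrp-1- iTreg. The lowest Nrp-1+ library was above the highest Nrp-1- library. The means, 1.16 ± 0.274 and 0.254 ± 0.0910 FPKM (SD, n = 4), stood in a ratio of 4.55, close to the 4.34 of Nrp1. Of the 10784 genes with at least the mean FPKM of Il9r, 50 had a ratio this large, Il9r included. On the log2(FPKM + 1) scale, which understates the change of low genes, the log2 fold change was 0.78 with a standard error of 0.10 (adjusted p = 0.000788 by limma), and with a pseudocount of 0.1 it was 1.84. At the approximate depths these values stand for 19.4 to 28.2 fragments per kilobase in the Nrp-1+ libraries and 3.16 to 6.02 in the Nrp-1- libraries, so the ratio is less certain than those of the abundant chains. Among the 3 mast cell markers, Kit was higher in Nrp-1+ iTreg at 3.91 ± 0.239 against 1.75 ± 0.188 FPKM (adjusted p = 2.70e-05 by limma), while Fcer1a (0.0148 and 0.0182 FPKM) and Cpa3 (0.0612 and 0.0881 FPKM) were near 0 in both groups. Over the 3 markers the sums ran from 3.71 to 4.18 FPKM and from 1.56 to 2.14 FPKM, and their part in the Il9r difference was not tested.

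**Figure D2:**
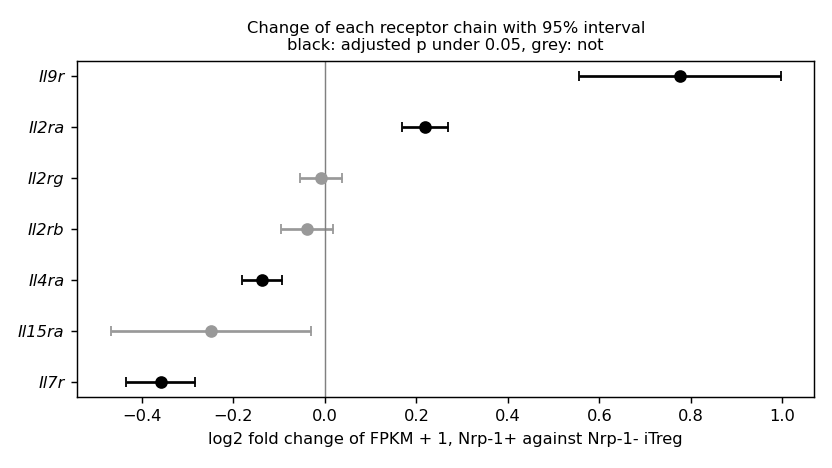
Log2 fold change of FPKM + 1 between Nrp-1+ and Nrp-1- iTreg for each chain (horizontal axis), with the 95% interval from limma before adjustment (black: adjusted p under 0.05, grey: not). The interval of Il9r, from 0.55 to 1.00, is the widest of the chains called, and those of Il2rb and Il2rg cross 0.

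The question of how the chains of a receptor stand to each other was taken up with ratios of FPKM within a library, which do not depend on the scaling between libraries. The 7 ratios were tested with exact two-sided permutation tests, adjusted over the 7. Il2ra to Il2rb, the IL-2-specific over the shared chain, was 0.496, 0.487, 0.494 and 0.453 in Nrp-1+ iTreg and 0.409, 0.410, 0.396 and 0.397 in Nrp-1- iTreg. The ratio was higher in every Nrp-1+ library, by 19.7% (exact permutation p = 0.0286, adjusted p = 0.0333). Il2ra to Il2rg was also higher, at 0.675 ± 0.00595 against 0.576 ± 0.0132 (SD, n = 4, exact permutation adjusted p = 0.0333). Il2rb to Il2rg was 1.40 ± 0.0574 against 1.43 ± 0.0147 and did not pass (exact permutation adjusted p = 0.314).

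The partner chains of IL-4 and IL-7 stood lower against the gamma chain in Nrp-1+ iTreg. Il7r to Il2rg fell from 0.399 ± 0.0152 in Nrp-1- iTreg to 0.312 ± 0.0103 in Nrp-1+ iTreg, and Il4ra to Il2rg from 0.227 ± 0.00398 to 0.208 ± 0.00574 (SD, n = 4, exact permutation adjusted p = 0.0333 for each). Il7r to Il2ra, the 2 chains that moved apart, was 0.461, 0.479, 0.457 and 0.452 in Nrp-1+ iTreg and 0.702, 0.701, 0.679 and 0.685 in Nrp-1- iTreg. This ratio differed by -33.2% in Nrp-1+ iTreg. Il2ra was higher and Il7r lower in every Nrp-1+ library, so the lack of overlap in their ratio was fixed by the single chains. The exact permutation test of this ratio (adjusted p = 0.0333) thus adds nothing to them. Il15ra to Il2ra, the alpha chains of the IL-15 and IL-2 receptors, was 0.00992 against 0.0147 on average, and here too the groups did not overlap (0.00926 to 0.0106 and 0.0113 to 0.0170, exact permutation adjusted p = 0.0333).

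**Figure D3:**
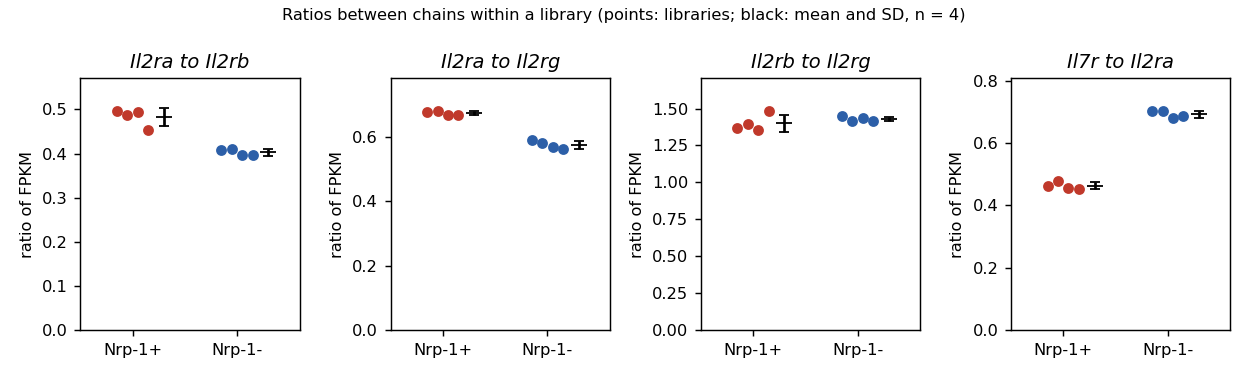
Ratio of the FPKM of 2 chains within each library (vertical axes from 0) in Nrp-1+ iTreg (red) and Nrp-1- iTreg (blue), with the mean and SD in black (n = 4). Il2ra to Il2rb and Il2ra to Il2rg are higher and Il7r to Il2ra lower in all Nrp-1+ libraries, while Il2rb to Il2rg overlaps.

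The ligands of these receptors were hardly transcribed. None of Il2, Il4, Il7, Il9, Il13, Il15 and Tslp reached a mean of 1 FPKM, and the 7 together summed to between 0 and 0.335 FPKM in Nrp-1+ libraries and between 0.221 and 0.504 FPKM in Nrp-1- libraries. Il4 was listed at 0 in all 4 Nrp-1+ libraries and at 0.294, 0.121, 0.448 and 0.132 FPKM in the Nrp-1- libraries (adjusted p = 0.0224 by limma over all genes above 0). These values stand for only 2.37 to 6.84 fragments per kilobase, so a lack of Il4 in Nrp-1+ iTreg was not shown at this depth. Il2, the growth factor that was added to the culture, was above 0 only in the Nrp-1+ replicates 1 and 3, at 0.196 and 0.215 FPKM.

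Downstream of the receptors, 5 of the 7 kinase and STAT genes fell in Nrp-1+ iTreg and 2 did not pass, where 20.0% of all genes tested were called lower. The median log2 fold change of the 7 was -0.11, against -0.016 for all genes tested. Jak1, the kinase bound to Il2rb, Il4ra, Il7r and Il9r, was at 177.6 ± 3.87 against 202.5 ± 3.26 FPKM (SD, n = 4, -12.3%, adjusted p = 0.000329 by limma), whereas Jak3, the kinase bound to the gamma chain, was at 72.2 ± 2.94 against 70.5 ± 1.89 FPKM (adjusted p = 0.466). Among the transcription factor genes, Stat3 (-7.62%), Stat6 (-7.30%), which serves Il4ra, and Stat5b (-5.65%, adjusted p = 0.0202 by limma) fell as well. Stat5a, the close relative of Stat5b in IL-2 signalling, was at 35.6 ± 1.89 against 36.6 ± 1.35 FPKM (adjusted p = 0.456 by limma).

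The feedback genes moved both ways, and their share of calls and that of the adaptor and PI3K genes were near the 40.9% of all genes tested. Cish, a target and inhibitor of STAT5 signalling, was at 202.9 ± 7.21 against 184.5 ± 3.38 FPKM (SD, n = 4, 9.99%, adjusted p = 0.00634 by limma) and Socs2 at 138.5 against 121.4 FPKM (14.1%, adjusted p = 0.000532). Socs3, which restrains STAT3, fell by 8.24% (adjusted p = 0.00238 by limma). Of the 6 feedback genes, 2 rose, 1 fell and 3 did not pass. Among 10 adaptor and PI3K genes, Gab2 (1.48 against 0.788 FPKM), Shc1 (39.3 against 34.2 FPKM) and Akt1 (13.3%) rose, Pik3cd fell by 14.1%, and 6 did not pass.

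Of 11 genes known as targets of these receptors, 4 rose, 3 fell and 4 did not pass. Those that rose were Lta (27.2%), a cytokine gene, Bcl2l1 (23.3%), which encodes the survival protein Bcl-xL, Ccnd3 (16.7%), a cyclin gene, and Foxp3 (6.44%, adjusted p = 0.0245 by limma). Those that fell were the survival kinase gene Pim2 (-25.7%) and the survival genes Mcl1 (-12.3%) and Bcl2 (-8.39%), the last a known target of IL-7. Among 13 tested genes known to regulate receptor genes, Runx1 (12.2%) and Nfatc2 (7.48%, adjusted p = 0.0459 by limma) rose, and Runx3 (-9.53%), Ets1 (-8.29%) and Foxo1 (-6.48%, adjusted p = 0.0201), a known activator of Il7r, fell, while 8 did not pass. Over all 48 tested genes of these groups, 11 rose and 13 fell, against the 40.9% of all genes called in either direction, and the median log2 fold change was -0.018, near the -0.016 of all genes.

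**Figure D4:**
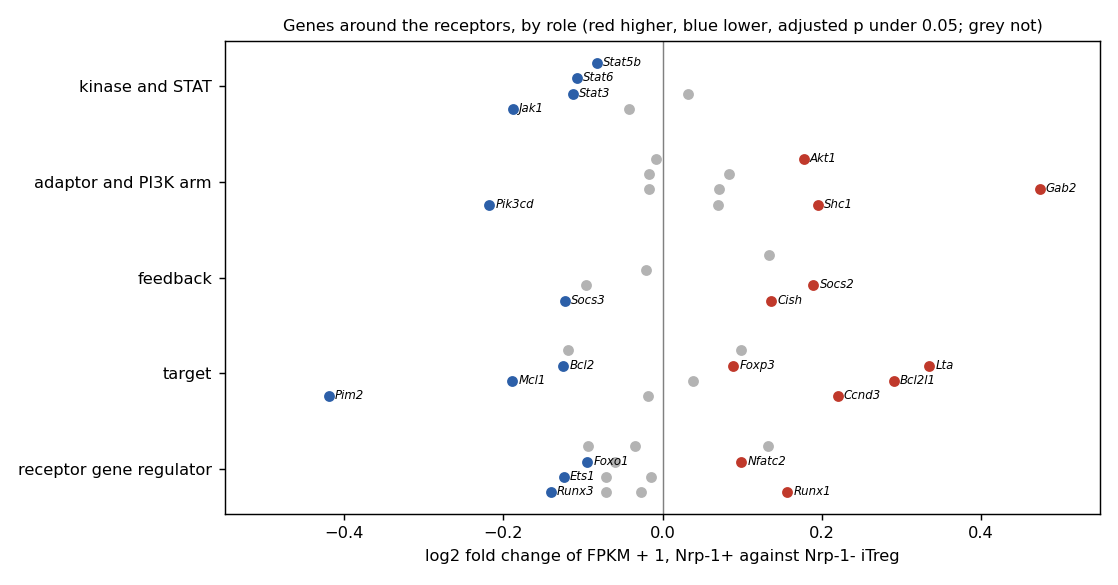
Log2 fold change of FPKM + 1 (horizontal axis) for the tested genes around the receptors, grouped by role, with genes at an adjusted p under 0.05 named in red (higher in Nrp-1+ iTreg) or blue (lower) and the rest in grey. The height of a point within a group carries no value. In the kinase and STAT group the 4 named genes lie below 0, and the other 4 groups drawn hold named genes on both sides; 1 tested gene of the kinase and STAT group is not drawn.

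The proliferation gene Mki67 and the topoisomerase gene Top2a, named for a difference known from earlier results of these data, were higher in Nrp-1+ iTreg. Mki67 was at 82.3 ± 4.59 against 46.3 ± 1.40 FPKM (SD, n = 4) and Top2a at 346.2 ± 9.71 against 173.2 ± 3.08 FPKM (adjusted p = 2.56e-06 and 1.84e-07 by limma), and their part in the changes of the receptor chains was not tested. Among the T cell genes Cd3d (-12.0%, adjusted p = 0.00370 by limma) and Cd3g (-7.36%, adjusted p = 0.0375) were lower in Nrp-1+ iTreg. Among the Treg genes Ctla4 fell by 10.3%, at 143.6 against 160.0 FPKM. Ikzf2, the gene of Helios, rose by 37.4% at a low level, 2.56 against 1.86 FPKM.

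The genes whose profiles over the 8 libraries were most like those of the 4 chains called were found by the root-mean-square difference of centred log2(FPKM + 1), among 8136 genes with a mean of at least 5 FPKM. For Il2ra they included Ccdc50 (0.0134) and Eftud2 (0.0208). For Il7r they were Sepp1 (0.0204), Iigp1 (0.0239) and Slfn5 (0.0292). Those nearest to Il4ra were Tmf1 (0.0145), Rgs14 (0.0146) and Yipf3 (0.0156), and those nearest to Il9r were Fads2 (0.0876), Mtfr2 (0.0987) and Phf19 (0.102). For each chain the differences given were below the chain's own SD within a group. That SD was 0.0249 for Il2ra, 0.0481 for Il7r, 0.0200 for Il4ra and 0.148 for Il9r. Picked as the nearest among 8136 genes, these profiles are close by selection, and the likeness was not tested.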

How the data were processed

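Per the study's methods, the authors ran the reads through the CLC Genomics Workbench and obtained FPKM by Cufflinks; the deposited table has an FPKM for every gene symbol in each library. GRCm38 (mm10) is the build in the submitters' processing notes, and the annotation and aligner settings are not given in the sources used here. The library kit differs between the methods (directional, polyA) and the labels.

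The main test was limma 3.58.1 (R 4.3.3) on log2(FPKM + 1), with eBayes using a trend on mean level. Adjustment was by Benjamini-Hochberg over all genes tested. The fit was also run on simulated data with independent normal noise for each gene. That simulation held no library, GC or short RNA effects, so it does not test the fit against them. Exact tests used scipy 1.17.1, and plots matplotlib 3.10.9. Approximate depth came from the low values of single-transcript genes, with GENCODE M21 lengths. The chains and the gene lists were chosen with earlier results of these data known. Genes named are the 7 chains, Nrp1, Mki67, Top2a, list genes (first those that passed and changed most, then others for their role), and the 3 profiles nearest to each chain called. Short RNA genes took 1.77% to 43.9% of a library's summed FPKM. Some genes that the rule names are not reported here. The nTreg control of the study was not analysed here.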

Additional observations from a re-analysis of the deposited data

How the results depend on the processing

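Settings tried in place of the main ones were a pseudocount of 0.1 or 0.5, no filter, a filter at 5 FPKM, size factors, quantile normalization, array weights, eBayes without trend, no short RNA genes, a correction for GC content and length, a replicate block without and with that correction, the Mann-Whitney test and each library left out in turn. Il2ra, Il4ra, Il7r and Il9r kept their direction and passed under all those run. For the exact Mann-Whitney test this was an unadjusted p of 0.0286 for each chain, the smallest that 4 libraries against 4 allow. Their log2 fold changes were 0.20 to 0.25, -0.15 to -0.13, -0.39 to -0.34 and 0.70 to 1.84. The highest adjusted p by limma, 0.0447, was that of Il4ra with the replicate block and the GC correction. The 7 ratios kept their direction in all alternatives run. Il9r could not be fitted with that correction or with the filter at 5 FPKM. Il15ra was called in 2 of 20 alternatives, at adjusted p = 0.0380 without short RNA genes and 0.00548 without replicate 3 of Nrp-1- iTreg, with a log2 fold change of -0.25 and -0.34. The sign turned for Il2rb (0.0040) and Il2rg (0.0098) with quantile normalization, and for Il2rg in the range over left-out libraries (-0.0145 to 0.0018, the latter without replicate 4 of Nrp-1+ iTreg), and none of these passed; the cause was not tested. Same-numbered libraries did not deviate together (correlations from -0.11 to -0.038). These correlations cannot show whether such libraries came from the same culture or mouse. Under the replicate block limma gave adjusted p = 0.00209 for Il2ra, 0.00805 for Il4ra, 0.000467 for Il7r and 0.0147 for Il9r, and of the genes around the receptors 9 rose and 11 fell. Sign flips within pairs cannot go below an exact p of 0.125. With the replicate block and the GC correction, 1343 of all genes were called higher and 1055 lower, against 2189 and 2093; the cause was not tested. Low values limit Il9r, Il15ra and the ligands.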
